A study of Mus musculus with 6 samples.

Results

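The fat of NOD mice whose diabetes had reverted was set against the fat of NOD mice with normal glycemia, to see what still differed after reversion. NOD is an inbred strain that develops autoimmune diabetes. The reverted group, called AAT-treated here, had received alpha-1-antitrypsin (AAT), showed stable reversion and no longer depended on insulin. The normoglycemic group were females of 10 weeks. Each group had 2 arrays, so the comparison rests on 4 of the 6 arrays of the study. The other 2 arrays, from NOD mice with blood glucose above 300 mg/dl on 3 consecutive days, entered the signal filter and the estimate of the spread and are given beside the others. Every group shared the NOD background, and no genetic change or other agent was named for any of them. The labels gave age and sex for the normoglycemic mice alone, and named no fat depot, AAT dose or treatment length. AAT, past diabetes, past insulin and age therefore cannot be told apart in this comparison. Nothing in the labels told whether a group's arrays stood for separate or pooled mice, so p-values measure the spread between these samples, which may be technical.

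All genes named by 1 symbol were members: 18193 on the array, of which 13058 passed a filter on low signal and were tested. The filter used the mean over all 6 arrays, so a gene could pass it through the 1 group in which it was high. Of the genes named below, Myom1, Ltb, Npas2, Cnn1, Myh1 and Cdh1 passed it only through the AAT-treated group. Each gene was represented by its probe set with the highest mean signal over the 6 arrays. Values are given in the order array 1, array 2 of a group, as MAS5 signals in arbitrary units, which can be compared between arrays but not between genes. A difference is the AAT-treated minus the normoglycemic mean of log2(signal + 74), ± the SE that limma gave it over n = 2 arrays in each group, so that a difference of 1 is a doubling of signal plus 74.

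Fat is a mixed tissue. Adipocytes store triglyceride and make it from glucose under insulin, while blood vessels, macrophages, plasma cells, fibroblasts and, in visceral depots, a mesothelial sheet fill the space between them. AAT is a serum inhibitor of neutrophil elastase, made chiefly by the liver. Glucocorticoids act on fat through a receptor that switches on a well-known set of genes, and interferons do the same through STAT proteins. In such bulk tissue, fewer cells of a type and less RNA per cell cannot be told apart.

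The labelled tissue was borne out by its defining genes. Adipoq, the adipocyte hormone adiponectin, gave 31858 and 15689.8 in AAT-treated and 41908 and 48729 in normoglycemic fat, and Lpl, the lipase that draws fatty acids from blood lipoproteins, gave 51103 and 27132 against 69009 and 74330.5. The arrays did not divide cleanly by group. Normoglycemic 1 and AAT-treated 2 had the brightest hybridisation controls, transcripts added to every sample, at 128547 and 86286, against 25159 to 48494 on the other 4 arrays. AAT-treated 1 correlated more closely with normoglycemic 2 (r = 0.931 across genes, which are not independent) than with AAT-treated 2 (r = 0.860). The beta-actin 3' to 5' ratio, which climbs with RNA breakdown, was 3.63 and 4.30 on the normoglycemic arrays, 9.08 and 5.87 on the AAT-treated and 15.2 and 15.5 on the diabetic ones. The same ratio for Gapdh was 0.910 and 0.946 on the normoglycemic, 2.31 and 0.790 on the AAT-treated and 2.46 and 4.63 on the diabetic arrays. By Gapdh, AAT-treated 2 was therefore not above the normoglycemic arrays. Because the arrays did not divide cleanly by group, results are also given within the bright pair (AAT-treated 2 minus normoglycemic 1) and within the other pair (AAT-treated 1 minus normoglycemic 2).

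No gene passed the adjusted threshold of 0.05 in limma with Benjamini-Hochberg adjustment, and the smallest adjusted p over the 13058 genes was 0.786. At an unadjusted p under 0.05, limma gave 448 genes higher (3.43%) and 224 lower (1.72%) in AAT-treated fat, together 5.15% of those tested. Both AAT-treated signals lay above both normoglycemic signals for 2095 genes (16%) and below them for 2098 (16.1%), together 32.1%. Leaving out normoglycemic 1 gave 238 higher and 42 lower at that unadjusted threshold, and leaving out normoglycemic 2 gave 974 and 538. Without AAT-treated 2 there were 487 lower, and without either diabetic array 146 lower. Without normoglycemic 2, Ephx1, Myh11 and Phf3 passed the adjusted threshold on the higher side, named here after their values were seen. On the fitted difference alone 48% of genes were higher and 52% lower, and the median over all genes was -0.03. Setting the array medians equal moved that median to 0.11, a shift of about the size of some of the smaller list medians below. With the beta-actin ratio as a covariate, differences turned sign for some of the genes named below, among them Zbtb16, Cdkn1a, Cd74, H2-Aa, Serpina1b, Fasn, Elovl6, Ehhadh, Cpt2, Atp5o, Prdx3, Ltf and Msln. The slope of this covariate came from differences within groups, and the ratio differed most between the AAT-treated arrays (9.08 and 5.87). Because the ratio also differed between the groups, that fit mostly carries the gap between the treated arrays into the comparison. It cannot separate RNA breakdown from group. Counts of lists cover the genes past the filter, which were few in some: 10 of 20 skeletal muscle genes on the array, 7 of 13 of brown fat, 8 of 17 of T cells, 13 of 18 of B cells, 10 of 16 of mammary epithelium and 9 of 13 of red cells and platelets. The percentages above are the background for every count that follows, and the differences described are those of these 4 arrays.

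Among genes whose groups did not overlap, the smallest p on the higher side belonged to Myom1, which encodes the sarcomere protein myomesin. Its signals were 892 and 742 in AAT-treated and 52.0 and 31.2 in normoglycemic fat, a difference of 2.95 ± 0.47, with 342 and 149 in diabetic fat. It passed the filter through the treated arrays, with both normoglycemic signals under the filter level of 164. Tgfbi, a matrix protein induced by TGF-beta, gave 6292 and 4958 against 1472 and 1454, a difference of 1.88 ± 0.32. The normoglycemic arrays nearly coincided there, and the diabetic arrays, at 5692 and 7295, lay as high as the treated ones. Ms4a4d, Susd2, Sdc1, Nbl1 and Myrf had the same layout, with both diabetic arrays above both normoglycemic arrays. Ms4a4d read 1161 and 1377 against 351 and 276 (1.80 ± 0.31; diabetic 852 and 1011). Sdc1, the heparan sulfate proteoglycan syndecan-1 found on epithelia and plasma cells, read 915 and 1431 against 193 and 343 (1.87 ± 0.37; diabetic 1074 and 1047). Nbl1, a secreted BMP antagonist, read 1326 and 1514 against 441 and 159.8 (2.10 ± 0.41). For Susd2 the difference was 2.16 ± 0.40 and for Myrf, a membrane-bound transcription factor, 2.36 ± 0.47.

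**Figure D1:**
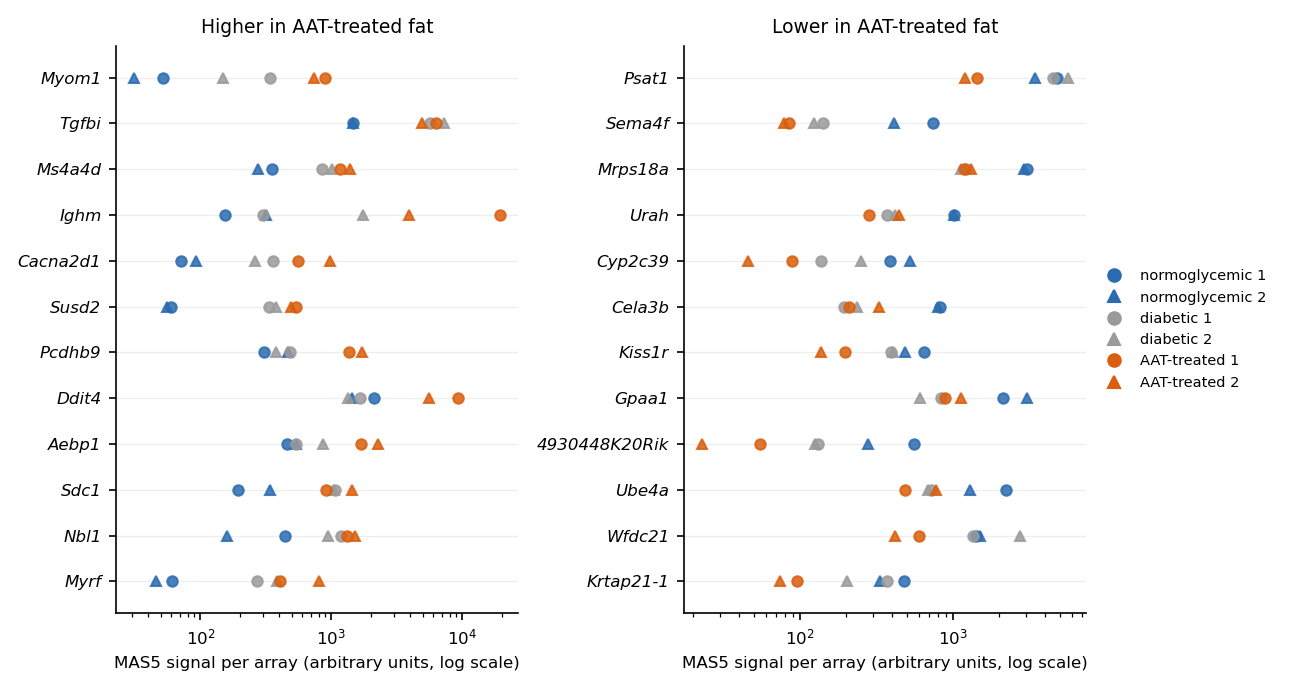
Signal on each of the 6 arrays (horizontal log axis, arbitrary units) for 12 genes higher and 12 lower, those of smallest p whose groups did not overlap; colours mark the group and symbols the array. Tgfbi, Ms4a4d and Mrps18a had diabetic signals next to the AAT-treated ones, while Ddit4, Pcdhb9, Psat1 and Wfdc21 had diabetic signals next to the normoglycemic ones.

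In Ddit4, Aebp1 and Pcdhb9, as in Myom1, Ms4a4d, Susd2, Nbl1 and Myrf, both treated signals lay above every diabetic and normoglycemic signal. Ddit4, an inhibitor of mTORC1 induced by stress and glucocorticoids, gave 9347 and 5523 against 2128 and 1445, a difference of 1.99 ± 0.38, with 1663 and 1337 in diabetic fat. Aebp1, a collagen-binding matrix protein also known as ACLP, gave 1685 and 2264 against 457 and 541 (1.83 ± 0.35), and Pcdhb9, a clustered protocadherin, 1358 and 1715 against 304 and 469 (1.82 ± 0.34). Rspo3, Dkk2 and Ptn were among the 8 genes with the largest difference on this side. Rspo3, which amplifies Wnt signalling, read 1907 and 3609.9 against 137 and 478 (2.98 ± 0.75; diabetic 684 and 85.0). Dkk2, a modulator of Wnt co-receptors, read 1018 and 2020.3 against 54.9 and 288 (2.81 ± 0.58; diabetic 236 and 109), and Ptn, the heparin-binding growth factor pleiotrophin, 2564 and 3137 against 133 and 652 (2.91 ± 0.61; diabetic 612 and 224). In Rspo3, Dkk2 and Ptn the lowest treated signal was above every diabetic and normoglycemic signal, and normoglycemic 1 was the lowest of the 4 arrays compared. Cacna2d1, an auxiliary calcium channel subunit, read 554 and 975 against 71.2 and 92.7 (2.38 ± 0.43). Another probe set that passed the filter pointed the opposite way for Ptn (1 of 1), Cacna2d1 (1 of 1) and Aebp1 (1 of 2), so these 3 differences depend on the probe set.

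The list that stood farthest from the median of all genes was that of smooth muscle. Of 20 listed genes of the contractile apparatus 19 were on the array, all passed the filter, and all 19 were higher in AAT-treated fat, with a median difference of 2.14 against -0.03 over all genes. The groups did not overlap for any of the 19 (background 16% higher), and 18 had an unadjusted limma p under 0.05 (background 3.43%), while none passed the adjusted threshold. Acta2, smooth muscle alpha-actin, read 25799 and 36469 in AAT-treated and 3823 and 14637 in normoglycemic fat, a difference of 2.02 ± 0.60. Normoglycemic 1 was far below normoglycemic 2, and the diabetic arrays, at 8066 and 5911, lay between those. Myh11, the smooth muscle myosin heavy chain, read 6346 and 11589 against 346 and 3045 (2.92 ± 0.80; diabetic 849 and 617), the largest difference of the list. Its other probe set that passed the filter gave only 0.64, and that of Acta2 gave 0.89.

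**Figure D2:**
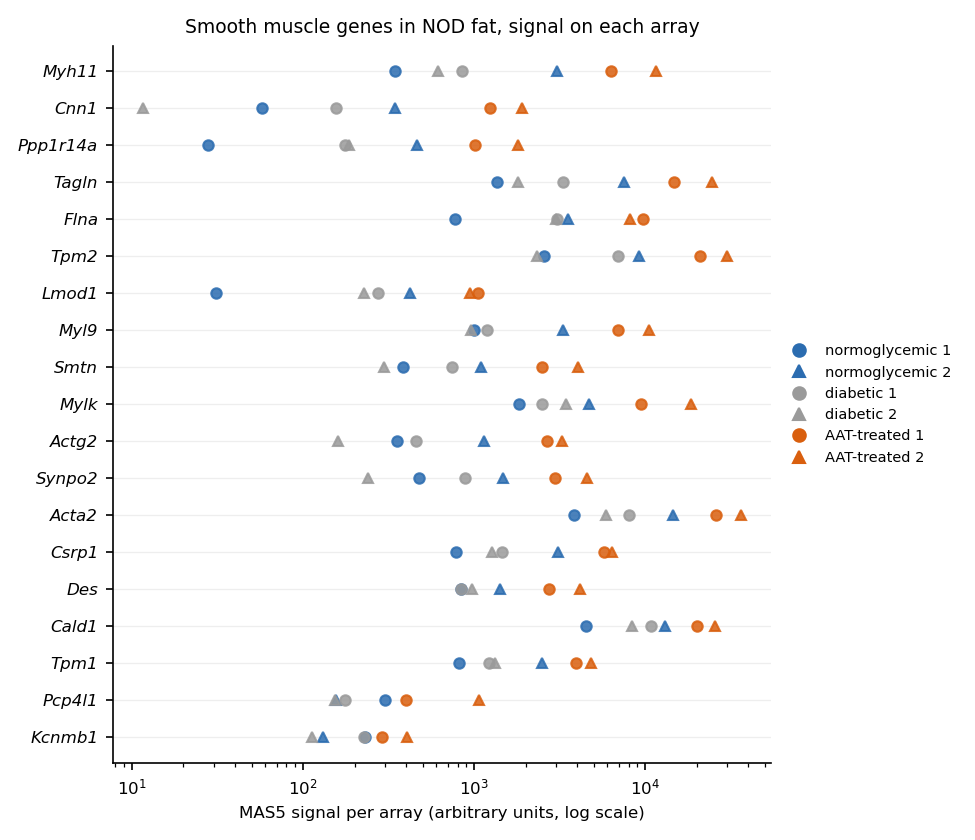
Signal of the 19 tested smooth muscle genes on each of the 6 arrays (horizontal log axis, arbitrary units), ordered by difference; colours mark the group and symbols the array. Both AAT-treated arrays lay above both normoglycemic arrays in every gene, normoglycemic 1 was below normoglycemic 2 in all but Pcp4l1 and Kcnmb1, and the diabetic arrays mostly lay with the normoglycemic ones.

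Structural filament genes and regulators of contraction differed alike. Des, the intermediate filament desmin, gave 2727 and 4151 against 834 and 1423 (1.56 ± 0.37), although its other probe set that passed the filter pointed the opposite way (-0.91). Tagln, the actin-binding protein transgelin, gave 14675 and 24541 against 1363 and 7552 (2.52 ± 0.72). Actg2, the gamma-actin of visceral smooth muscle, gave 2668 and 3269.5 against 353 and 1143 (2.07 ± 0.56). Cnn1, the calponin that restrains myosin, gave 1244 and 1912 against 57.9 and 347 (2.78 ± 0.67). Mylk, the kinase that starts contraction by phosphorylating the myosin light chain, gave 9483 and 18518 against 1839 and 4694 (2.14 ± 0.51), and Myl9, the light chain itself, 6912 and 10509 against 1004 and 3315 (2.17 ± 0.52). Kcnmb1, a subunit of the calcium-activated potassium channel, had the smallest difference, 0.74 ± 0.49. Skeletal muscle genes did not share this: 6 of 10 tested were higher, with a median of 0.08. Myh1, a fast skeletal myosin, was high on AAT-treated 1 only (2659 and 140.3 against 73.2 and 65.2), and Ckm, muscle creatine kinase, gave 39.4 and 251 against 508 and 215, with its other probe set at 0.44.

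The size of the smooth muscle difference depended on which arrays were compared. Its median was 3.23 within the bright pair and 1.02 within the other pair. All 19 genes were higher within each, which follows from the lack of overlap and adds nothing to it. Without normoglycemic 1 the median was 1.32 with 12 of 19 at an unadjusted p under 0.05, without normoglycemic 2 it was 2.84 with 17, and without AAT-treated 2 it was 1.82. With the beta-actin ratio as a covariate the median stayed at 2.13, but 3 of 19 had such a p. With the mean of a gene's probe sets the median was 1.75, and 16 of 19 had such a p. The mean of log2(signal + 74) over the list was 11.96 and 12.5 in AAT-treated and 9.40 and 10.9 in normoglycemic fat.

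Smooth muscle genes are classically switched on by serum response factor and myocardin at CArG boxes, written here as CC, then 6 letters of A or T, then GG. These stretches are shown because every gene of the list was higher. The sequence of 250 bases before the RefSeq start was on hand for 16 of the 19 genes (GRCm38.p6). An exact box, searched in a form that reads the same on both strands, was found in 1 of the 16 (6.25%, against 1.62% of all genes), and a box with at most 1 of the 6 central letters changed in 3 (18.8%, against 9.78%). The 5 matches follow, 5′ to 3′ on the gene's strand with 10 bases on either side, and the capitals mark the box.
Acta2, chr19:34255438-34255467, strand minus: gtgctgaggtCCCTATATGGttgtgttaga
Acta2, chr19:34255388-34255417, strand minus: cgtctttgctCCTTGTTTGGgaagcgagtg
Myl9, chr2:156775293-156775322, strand plus: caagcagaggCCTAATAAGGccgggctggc
Myl9, chr2:156775355-156775384, strand plus: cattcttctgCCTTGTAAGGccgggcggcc
Pcp4l1, chr1:171196365-171196394, strand minus: tccgtcttacCCTAGTTTGGaaatgcagca
The exact match is that of Myl9 at 161 bases before the start. The Acta2 matches start 84 and 34 bases before it, the other Myl9 match 99 bases and the Pcp4l1 match 116 bases. A match is a description of these letters, not evidence of binding in these samples.

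Genes of vessel endothelium did not share this layout. Of 20 endothelial genes 12 were higher and 0 had treated signals above both normoglycemic ones. The summed signal of the list was 92091 and 18525 in AAT-treated and 17613 and 110422 in normoglycemic fat, so normoglycemic 1 and AAT-treated 2 were the low arrays. Pecam1, the endothelial adhesion molecule CD31, read 1937 and 633 against 99.0 and 1736, and Plvap, the protein of endothelial diaphragms, 6808 and 1279 against 142 and 6097. Vwf, von Willebrand factor, read 2496 and 529.7 against 161 and 1228, and Fabp5, a fatty acid binding protein, 17568 and 5981 against 9329 and 42351. Normoglycemic 1 and AAT-treated 2 also carried the brightest controls. The median of 0.29 turned to -0.60 with those controls as a covariate and to -3.58 with the beta-actin ratio, with 0 of 20 higher. Over the endothelial genes the median came to -0.93 without normoglycemic 1, 1.67 without normoglycemic 2, -0.65 without AAT-treated 1, and 1.59 without AAT-treated 2.

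Tissues that hold much smooth muscle were checked by markers of the reproductive tract. Of 10 tested, 5 were higher, with a median of 0.14. Pgr, the progesterone receptor, gave 2179 and 1822 against 464 and 985 (1.45 ± 0.42), and Oxtr, the oxytocin receptor, 929.9 and 842 against 158 and 366 (1.58 ± 0.51). The other Oxtr probe set that passed the filter gave 0.0013, so its difference depends on the probe set. Esr1, the estrogen receptor, gave 3141 and 6052 against 3499 and 2978, and Ltf, lactoferrin, 85.1 and 169.9 against 810.1 and 191. The part of such tissue in the smooth muscle difference was not tested.

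**Figure D3:**
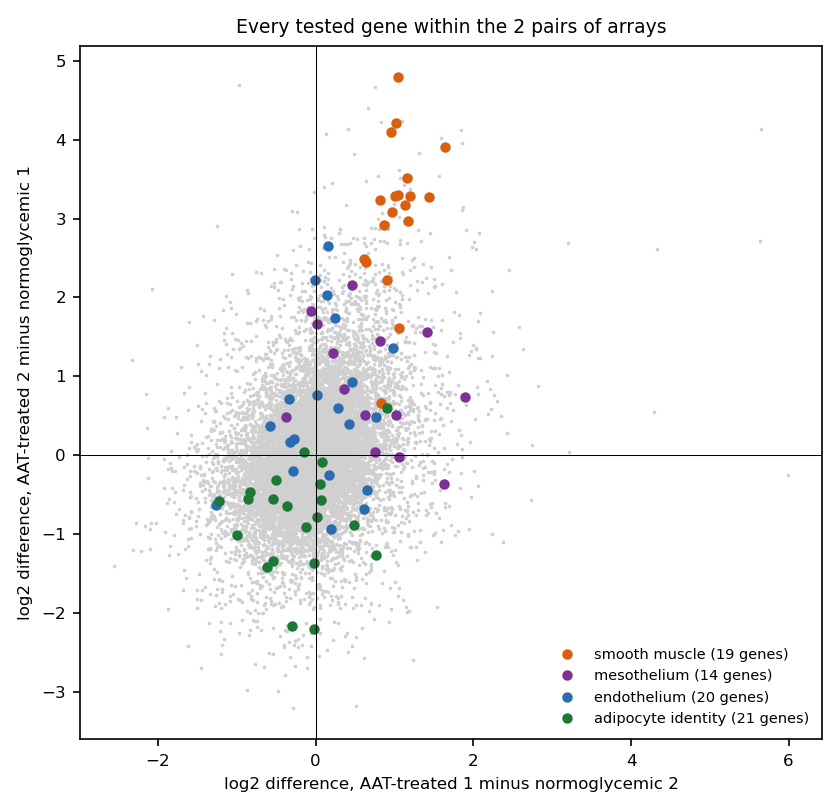
Every tested gene as a grey point, by its log2 difference within the other pair (horizontal, AAT-treated 1 minus normoglycemic 2) and within the bright pair (vertical, AAT-treated 2 minus normoglycemic 1), with 4 gene lists in colour. The smooth muscle genes lie above 0 on both axes, with medians of 1.02 and 3.23, while endothelial genes lie on both sides of 0.

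Matrix genes were mostly higher. Of 35 extracellular matrix genes 27 were higher, 16 had non-overlapping higher signals and 7 had an unadjusted limma p under 0.05, with a median of 0.46. Postn, the matricellular protein periostin, read 11811 and 12890.5 against 1709 and 6238 (1.89 ± 0.54). Mmp14, a membrane-bound collagenase, read 2383 and 2688 against 859 and 954 (1.41 ± 0.37), and Loxl1, an enzyme that cross-links elastin, 1619 and 1574 against 617 and 847 (1.07 ± 0.31). The large fibrillar collagens were not among the 7. Col1a2 gave 5608 and 4308 against 2705 and 3280.4 (0.71 ± 0.57), and Col3a1 9626 and 5302 against 4214 and 6012 (0.499 ± 0.57), with overlapping groups in Col3a1. Without normoglycemic 1 the list had 20 of 35 higher, and with the beta-actin ratio as a covariate 17 higher and a median of -0.06, so that the direction turned, and 2 were higher and 9 lower at an unadjusted p under 0.05. Over the extracellular matrix genes the median came to 0.29 without normoglycemic 1, 0.75 without normoglycemic 2, 0.27 without AAT-treated 1, and 0.80 without AAT-treated 2.

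Progenitor genes of the adipocyte lineage gave a median of 0.32, with 13 of 16 higher. Only 3 did not overlap, near the background of 16%, and 1 had an unadjusted limma p under 0.05. Pi16, a marker of the earliest stromal progenitors, read 427 and 564 against 59.4 and 263 (1.41 ± 0.64), and Fmo2, a flavin monooxygenase, 2562 and 3786 against 1507 and 1578 (0.98 ± 0.36). Over the progenitor genes the median came to 0.13 without AAT-treated 1, and 0.62 without AAT-treated 2.

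All 14 tested mesothelial genes were higher, with a median of 0.76, 0.79 within the bright pair and 0.69 within the other pair. The groups did not overlap for 7, and 4 had an unadjusted limma p under 0.05. Efemp1, the matrix protein fibulin-3 made by mesothelium and fibroblasts, read 13988 and 11285 against 3769.7 and 5207 (1.49 ± 0.35; diabetic 11155 and 11587). Gpm6a, a membrane glycoprotein, read 1228 and 1009.9 against 575 and 277 (1.31 ± 0.38), Wt1, the transcription factor of the visceral mesothelium, 1115 and 2193 against 761 and 603 (1.13 ± 0.39), and Upk3b, a uroplakin of mesothelial cells, 2380.3 and 2142 against 1489 and 1139.8 (0.76 ± 0.32). Msln, mesothelin, differed between the treated arrays instead, at 804 and 279.5 against 381 and 210.4 (0.63 ± 0.54). The other Gpm6a probe set that passed the filter gave 0.25. Without AAT-treated 2 the list had 9 of 14 higher. Over the mesothelial genes the median came to 0.45 without normoglycemic 2, and 1.21 without AAT-treated 1.

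AAT-treated 2 stood alone in epithelial keratins. Krt18 read 482 and 5149.5 in AAT-treated and 1395 and 505 in normoglycemic fat, Krt8 455 and 2237 against 868 and 381, and Krt7 311 and 2912 against 462 and 91.7. Cdh1, the epithelial cadherin, read 32.5 and 1466 against 106 and 56.6 and Krt5, a basal cell keratin, 104 and 1742 against 541 and 76.5. The milk protein genes Wap (116 and 131 against 248 and 255) and Csn2 (92.7 and 258 against 344 and 195) were not high on that array. The mammary list as a whole had 6 of 10 genes higher and none with non-overlapping higher signals. The part of epithelial tissue in the keratin signals among the mesothelial genes was not tested.

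Plasma cell transcripts gave the largest difference of all genes. Ighm, the heavy chain of IgM, read 19419 and 3925 in AAT-treated and 153 and 315 in normoglycemic fat, a difference of 4.89 ± 0.86, with 301 and 1738 in diabetic fat. Jchain, the chain that joins IgM and IgA into polymers, read 9846 and 5309.5 against 802 and 419 (3.48 ± 0.77; diabetic 350.2 and 2557), and the kappa light chain gene Igkv8-30 23744 and 7487 against 1075 and 403 (4.18 ± 1.36; diabetic 154 and 7322). Mzb1, a chaperone of antibody secretion, read 544 and 1032 against 140.1 and 325 (1.499 ± 0.46). The treated arrays differed severalfold in Ighm and Igkv8-30, yet both were above both normoglycemic arrays in these 4 genes. Immunoglobulin probes may read related chains. The 7 other Ighm probe sets that passed the filter gave -0.53 to 3.17, with 1 pointing the opposite way, so the size of the Ighm difference depends on the probe set.

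The B cell list, which holds Ighm, Jchain and Mzb1, had 6 of 13 genes higher and a median of -0.07, a direction that depended on the processing. The median turned to 0.07 with array medians set equal, 0.04 with quantile normalization, 0.65 under the stricter filter (5 of 7 higher), 0.33 with the hybridisation controls as a covariate and 1.60 with the beta-actin ratio (13 of 13 higher). Of 3 genes of B cells before the plasma cell stage, named after their values were seen, Ms4a1 and Blk overlapped and Pax5 was lower on both treated arrays. All 3 had a negative difference. The list also held higher genes besides Ighm, Jchain and Mzb1, so these 3 do not stand for its B cell genes. Ms4a1, the B cell surface molecule CD20, read 214 and 535 against 535 and 346, Pax5, the B lineage transcription factor, 163 and 270.3 against 429 and 279.8, and Blk, a B cell kinase, 282 and 552 against 1089 and 512. Of 8 T cell genes 5 were higher, none at an unadjusted p under 0.05, and the median of 0.17 turned to -0.13 with the mean of a gene's probe sets. Thy1, which stromal cells also carry, gave 629 and 548 against 274 and 258 (0.96 ± 0.53), and Gzma, a granzyme, 97.6 and 52.8 against 339 and 143 (-1.02 ± 0.55).

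Lymphoid stroma genes were 6 of 7 higher with a median of 0.56. Ltb, lymphotoxin beta, which organises lymphoid tissue, read 277 and 322 against 13.7 and 41.6 (1.89 ± 0.58; diabetic 142 and 368), and Clu, the chaperone clusterin, 3963 and 2414 against 1595 and 1684 (0.89 ± 0.34). Cxcl13, the chemokine that draws B cells into follicles, read 553 and 1125 against 775 and 335, and Lyve1, of lymphatic vessels and resident macrophages, 513 and 216 against 192 and 13.7. Madcam1, the addressin of lymphoid venules, gave 194 and 253 against 262 and 237. Over the lymph node stroma genes the median came to 0.85 without normoglycemic 1, and 0.93 without AAT-treated 2. How far lymphoid tissue contributed to the plasma cell signals was not tested.

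Macrophage genes were mostly higher. Of 26 tested, 20 were higher, 13 did not overlap and 5 had an unadjusted limma p under 0.05, with a median of 0.42. C1qc, a chain of the first complement component, read 1241 and 991 against 112 and 334 (2.10 ± 0.58; diabetic 509 and 1725). Mpeg1, a pore-forming protein of phagocytes, read 845 and 828 against 207 and 419.8 (1.29 ± 0.36), and Ctss, the protease that prepares MHC class II for peptide loading, 2367 and 2114 against 938 and 816 (1.28 ± 0.38). Laptm5, a lysosomal protein of leukocytes, gave 0.996 ± 0.34, but 3 of its 4 other probe sets that passed the filter pointed the opposite way. With the beta-actin ratio as a covariate 16 of 26 were higher, 1 at such a p. Cd163, a scavenger receptor of resident macrophages, gave 208 and 124 against 543 and 522, below both normoglycemic arrays. Normoglycemic 1, the array with the brightest controls, had the lowest C1qc and Mpeg1 signals of the 4 arrays compared.

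**Figure D4:**
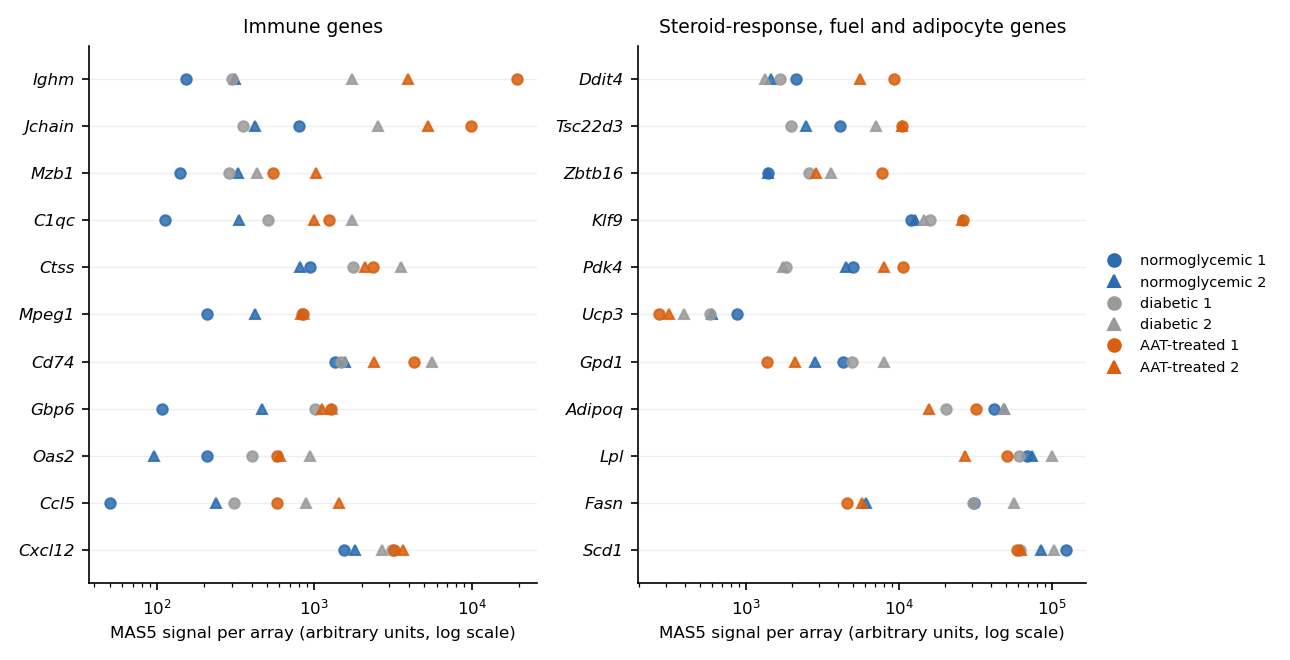
Signal on each of the 6 arrays (horizontal log axis, arbitrary units) of immune genes, left, and of steroid-response, fuel and adipocyte genes, right; colours mark the group and symbols the array. Ighm ran from 153 to 19419 over the 4 arrays compared, while Klf9 stayed within a much narrower range.

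Antigen presentation by MHC class II had 5 of 7 tested genes higher, all 5 without overlap, and a median of 0.77, but none with an unadjusted p under 0.05. Cd74, the invariant chain, read 4332 and 2389 against 1352 and 1568 (1.11 ± 0.58), H2-Eb1 2989 and 2839 against 1643 and 1401 (0.91 ± 0.48) and H2-Ab1 1751 and 1529 against 589 and 1124 (0.94 ± 0.53). H2-Aa, the alpha chain that pairs with H2-Ab1, read 4458 and 3032 against 1900.4 and 2361. H2-DMb2, a peptide-loading chaperone, was lower, at 389 and 387 against 695 and 512, with its other probe set at 0.23. Over the MHC class II genes the median came to 0.50 without AAT-treated 1.

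The interferon response had 27 of 28 tested genes higher, 16 without overlap and 5 at an unadjusted limma p under 0.05. Its median was 0.50, with 0.83 within the bright pair and 0.29 within the other pair. Gbp6, an interferon-inducible GTPase, read 1282 and 1118 against 107 and 463 (2.03 ± 0.49; diabetic 1005 and 1292), and Gbp3 883 and 1138 against 378 and 507 (1.07 ± 0.36). Oas2, a sensor of double-stranded RNA, read 582 and 606 against 208 and 95.7 (1.61 ± 0.46; diabetic 405 and 946), and Tap1, the peptide transporter of MHC class I, 737 and 549 against 60.4 and 381 (1.52 ± 0.56). Mx1, an antiviral GTPase, was 77.2 and 94.3 against 257 and 142, the exception on the lower side. The other Gbp6 probe set that passed the filter gave 0.19, so the Gbp6 difference depends on the probe set. Closely related guanylate-binding proteins may share probes, so Gbp3 and Gbp6 are uncertain as single genes.

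Among chemokines and cytokines 13 of 19 genes were higher, with a median of 0.16 and 2 at an unadjusted limma p under 0.05. Those were Ccl5, which attracts T cells, at 579.5 and 1444 against 50.1 and 239 (2.34 ± 0.64), and Cxcl12, a stromal chemokine, at 3223 and 3643 against 1549 and 1807 (1.003 ± 0.30), with the other Cxcl12 probe set that passed the filter at -0.15. The inflammatory cytokine genes Tnf (20.9 and 40.2 against 79.3 and 31.7), Il6 (26.7 and 114 against 121 and 61.4) and Ccl2 (24.7 and 230.0 against 200.01 and 257) lay below the filter and were not tested. Neutrophil and mast cell genes had 5 of 9 higher, with only 2 left under the stricter filter and a median of -0.18 there, and Mpo, myeloperoxidase, gave 90.7 and 258 against 479 and 279.6.

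Genes that glucocorticoids induce formed another group on the higher side. Of 19 tested, 16 were higher, 8 did not overlap and 5 had an unadjusted limma p under 0.05, with a median of 0.54. Besides Ddit4, Tsc22d3, the anti-inflammatory protein GILZ, read 10405 and 10493 against 4085 and 2483 (1.69 ± 0.56; diabetic 1979 and 7092), with almost equal treated signals. Zbtb16, the transcription factor PLZF, read 7789 and 2879.8 against 1382 and 1388 (1.72 ± 0.47; diabetic 2591 and 3601). Klf9, a transcription factor that responds to the steroid within hours, read 26284 and 25722 against 12058 and 12724 (1.07 ± 0.35; diabetic 16034 and 14661), and its spread within either group was small beside the difference. Cdkn1a, the cell cycle inhibitor p21, read 5705 and 3125 against 367 and 2263 (2.08 ± 0.71), and Fkbp5, a chaperone of the receptor itself, 4112 and 3185 against 2915 and 2099 (0.54 ± 0.43). With the beta-actin ratio as a covariate 12 of 19 were higher with a median of 0.52, none higher and 2 lower at an unadjusted p under 0.05. For Klf9 2 of 6 other probe sets that passed the filter pointed the opposite way. The 3 other Tsc22d3 probe sets that passed it gave smaller differences, from 0.15 to 1.09. The list's median was 0.15 within the bright pair and 0.70 within the other pair.

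Pdk4, the kinase that shuts glucose out of the citric acid cycle, read 10568 and 7964 in AAT-treated and 4986 and 4492 in normoglycemic fat (0.94 ± 0.32), with 1828 and 1732 in diabetic fat, below all 4. Foxo1, the transcription factor that insulin keeps out of the nucleus, read 5224 and 4147 against 1972 and 2859.9 (0.95 ± 0.33; diabetic 3761 and 4197), with 1 of 2 other probe sets that passed the filter at -0.31. Of 16 genes of fasting and fatty acid oxidation 13 were lower, 9 of them without overlap (background 16.1%), with a median of -0.41. Ehhadh, a peroxisomal enzyme of that pathway, read 224 and 619 against 2189 and 771 (-1.61 ± 0.66), Ucp3, a mitochondrial carrier, 268 and 314 against 869.7 and 597 (-1.13 ± 0.36), Cpt2, which reloads fatty acids inside mitochondria, 1529 and 1918 against 3089 and 2215 (-0.59 ± 0.33), and Ppara, the receptor that governs the pathway, 271 and 249 against 555 and 351 (-0.63 ± 0.38). With the beta-actin ratio as a covariate the direction of the list turned, with 9 of 16 higher and a median of 0.11. For Ppara the other probe set that passed the filter pointed the opposite way. Over the fasting and fatty acid oxidation genes the median came to -0.25 without normoglycemic 1.

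Adipocyte genes were on the lower side. Of 21 tested, 20 were lower and 8 of those did not overlap, with a median of -0.51, but 1 had an unadjusted limma p under 0.05. That was Gpd1, which makes the glycerol backbone of triglyceride, at 1379 and 2085 against 4288 and 2819 (-1.004 ± 0.39; diabetic 4928 and 7952). Adipoq gave a difference of -1.01 ± 0.55 and Lpl of -0.94 ± 0.51, both with AAT-treated 2 the lowest array. Retn, the hormone resistin, read 22319 and 5450.2 against 25458 and 22618, so that AAT-treated 1 was close to normoglycemic fat. Pparg, the master regulator of adipocytes, gave 1996 and 1717 against 2151 and 2865 (-0.41 ± 0.37), and Lep, leptin, ran from 63.1 to 2252 within the treated group alone (-0.25 ± 2.001). Cebpb, a transcription factor also induced by glucocorticoids, was the exception, at 4777 and 5028 against 3309.6 and 2507 (0.75 ± 0.37), with its other probe set that passed the filter at -0.03. The median of the list was -0.64 within the bright pair and -0.14 within the other pair, and without AAT-treated 2 it was -0.16 with 12 of 21 lower, while with the beta-actin ratio as a covariate 17 were lower, 7 of them at an unadjusted p under 0.05.

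Fatty acid synthesis had 20 of 26 genes lower, none at an unadjusted p under 0.05, and a median of -0.41. The median was -0.65 within the bright pair and 0.12 within the other pair, so the pairs went opposite ways. Fasn, fatty acid synthase, read 31130.0 and 6093 on the normoglycemic arrays and 4596 and 5691 on the treated ones (-1.42 ± 0.70; diabetic 30725 and 56987), with normoglycemic 1 far above the other 3. Over the lipogenesis genes the median came to 0.04 without normoglycemic 1, -0.67 without normoglycemic 2, and 0.01 without AAT-treated 2. Elovl6, an elongase, had the same layout, at 2806 and 618 on the normoglycemic and 479.7 and 744 on the treated arrays. Scd1, the desaturase that makes oleate, read 58903 and 63020.3 against 123691 and 85512 (-0.75 ± 0.49). Agpat2, an enzyme of triglyceride assembly, read 1841 and 1183 against 2884 and 2119 (-0.72 ± 0.37), and Lpin1, which acts after it, was higher, at 9275 and 5118 against 4548 and 3821 (0.72 ± 0.37).

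Insulin signalling genes lay on both sides, 10 of 18 higher with a median of 0.08. Slc2a4, the glucose transporter GLUT4, read 1944 and 776 against 1494 and 1369.8 (-0.20 ± 0.46), and Insr, the insulin receptor, 3935 and 1382 against 1233 and 2324 (0.45 ± 0.51). The receptor substrates gave -0.02 ± 0.34 for Irs1 and 0.63 ± 0.63 for Irs2. In Slc2a4, Insr and both substrates the groups overlapped, and every other probe set of Slc2a4 and Insr that passed the filter pointed the opposite way. The list's median turned to -0.02 with the hybridisation controls as a covariate and -0.25 with the beta-actin ratio. Cholesterol synthesis gave a median of -0.16 over 16 genes. Fdft1, squalene synthase, read 2477 and 1793 against 5148 and 3509 (-0.99 ± 0.42), and Hsd17b7, a later enzyme, 219 and 253 against 635 and 331, with 1 of its 3 other probe sets opposite.

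The lower genes with the smallest p were of mixed function. Psat1, an enzyme of serine synthesis, read 1441 and 1195 in AAT-treated and 4797 and 3417 in normoglycemic fat, a difference of -1.57 ± 0.33, and the diabetic arrays, at 4462 and 5624, lay with the normoglycemic ones. Wfdc21, a small secreted protein, had the same layout, at 599 and 419 against 1403 and 1500.2 (-1.41 ± 0.39; diabetic 1353 and 2751). Mrps18a, a protein of the mitochondrial ribosome, read 1181 and 1318 against 3039.6 and 2913 (-1.21 ± 0.29), with the diabetic arrays at 1218 and 1131, next to the treated ones. Gpaa1, which attaches GPI anchors, read 892 and 1133 against 2124 and 3033 (-1.28 ± 0.34), Urah, an enzyme of urate breakdown, 282 and 442 against 1008 and 1015 (-1.34 ± 0.34), and Ube4a, a ubiquitin ligase, 483 and 769 against 2229 and 1288 (-1.37 ± 0.38). These 3 also had diabetic signals below both normoglycemic ones. The other Gpaa1 probe sets that passed the filter gave -0.0023 and 0.46, so its difference depends on the probe set.

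Several of the lower genes had treated signals near the level added before the logarithm. Sema4f, a semaphorin, read 84.9 and 78.7 against 741 and 414 (-2.02 ± 0.48), Cyp2c39, a cytochrome P450 of a large gene family, 89.2 and 45.9 against 388 and 525 (-1.91 ± 0.49), and Mbl1, a mannose-binding lectin, 102 and 35.5 against 556 and 331 (-1.86 ± 0.58). 4930448K20Rik had the largest difference on this side, -2.08 ± 0.57, from 558 and 278 in normoglycemic to 54.7 and 23.1 in AAT-treated fat. Sema4f, Cyp2c39, Mbl1 and 4930448K20Rik passed the filter through their normoglycemic signals, with both treated signals under its level of 164. Kiss1r, the kisspeptin receptor, gave -1.40 ± 0.37, Cela3b, a pancreatic elastase gene, -1.39 ± 0.36, and Krtap21-1, a hair keratin-associated gene, -1.59 ± 0.47. Sycp3, a meiotic protein, read 509 and 831 against 4502 and 1226 (-1.75 ± 0.57), Prr16 gave -1.92 ± 0.66, Tmem270 -1.76 ± 0.64 and A530088E08Rik -1.98 ± 0.65. A530088E08Rik, at 18.0 and 87.3 against 352 and 466, also passed the filter only through the normoglycemic group. The same holds for Top2a, Cdk1, Ltf, Mx1, Gp9, Wap, Reg1 and Clps, named in other paragraphs.

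Blood cell transcripts were lower too. All 9 tested erythroid and platelet genes were lower, with a median of -0.52, 3 of them without overlap and 2 at an unadjusted limma p under 0.05. Ppbp, a platelet chemokine precursor, read 666 and 573 against 2237 and 1362 (-1.40 ± 0.47; diabetic 174 and 31.0), and Slc4a1, the anion exchanger of red cells, 815 and 359 against 1146 and 1397 (-1.11 ± 0.41; diabetic 148 and 131). Hbb-b2, a beta-globin gene with near-identical copies, read 1616 and 167 against 1027 and 2384, so that AAT-treated 1 lay between the normoglycemic arrays. With the beta-actin ratio as a covariate 6 of the 9 were lower. Over the erythroid and platelet genes the median came to -0.84 without normoglycemic 1, -0.79 without normoglycemic 2, and -1.02 without AAT-treated 1. Gp9, a platelet glycoprotein, read 120.3 and 100.5 against 302 and 257 (-0.94 ± 0.56).

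Respiratory chain genes were 29 of 32 lower, with 12 not overlapping and none at an unadjusted p under 0.05. The median of -0.22 was small, and with array medians set equal it was -0.08, with 21 of 32 lower. Atp5o, a stalk subunit of ATP synthase, read 3074 and 5498 against 7642 and 6038 (-0.71 ± 0.39), and Ndufa9, of complex I, 3355 and 3899 against 6438 and 4748 (-0.60 ± 0.33). Over the oxidative phosphorylation genes the median came to -0.38 without AAT-treated 1. Antioxidant genes were 16 of 24 lower with a median of -0.32, but with the beta-actin ratio as a covariate 14 of 24 were higher and the median turned to 0.28. Prdx3, the mitochondrial peroxiredoxin, read 1292 and 2343 against 3641 and 2736 (-0.83 ± 0.37), while Nqo1, a quinone reductase, was higher, at 601 and 666 against 25.3 and 553, through a very low normoglycemic 1.

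**Figure D5:**
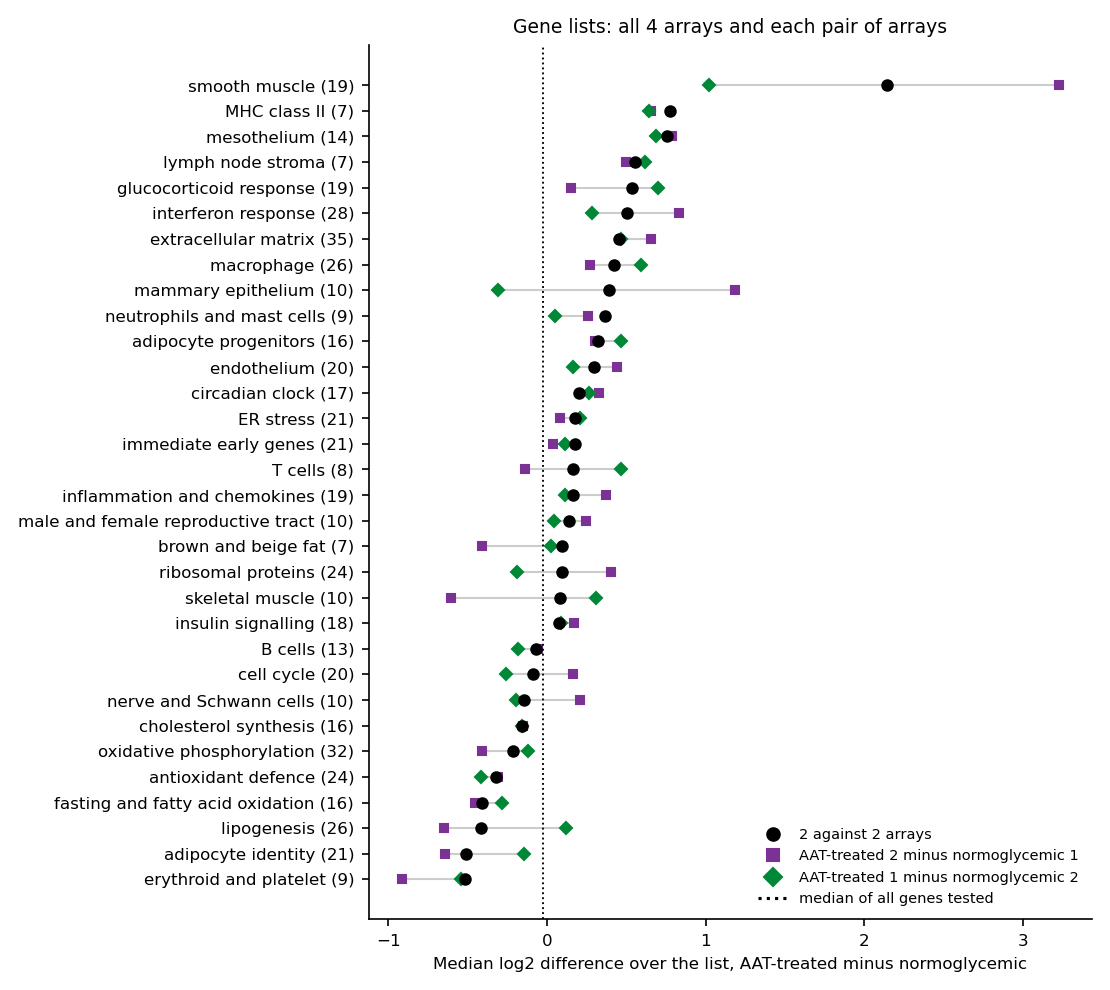
Median log2 difference (horizontal) of each gene list with at least 5 tested genes, whose number stands in brackets; black circles give the comparison of 2 against 2 arrays, squares the bright pair, diamonds the other pair, and the dotted line the median of all genes. Smooth muscle lies farthest to the right at 2.14, and 8 lists have pair medians of opposite sign (lipogenesis, mammary epithelium, skeletal muscle, ribosomal proteins, T cells, brown and beige fat, cell cycle, and nerve and Schwann cells); the cell cycle and B cell medians turn sign with array medians set equal.

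The medians of the remaining lists ran from -0.15 for nerve and Schwann cells to 0.36 for neutrophils and mast cells, against -0.03 over all genes. Of the 32 lists with at least 5 tested genes, the median kept its sign without each of the 4 compared arrays in 16 and turned without at least 1 of them in 16. Those that kept it were smooth muscle, adipocyte identity, fasting and fatty acid oxidation, oxidative phosphorylation, macrophage, lymph node stroma, neutrophils and mast cells, interferon response, MHC class II, extracellular matrix, glucocorticoid response, circadian clock, antioxidant defence, mesothelium, erythroid and platelet and adipocyte progenitors. Cell cycle genes were 12 of 20 lower with a median of -0.09, which turned to 0.05 with array medians set equal and 0.20 under the stricter filter. Top2a, the topoisomerase of dividing cells, read 143 and 24.4 against 259 and 476 (-1.55 ± 0.57), next to Cdk1, the mitotic kinase, at 197 and 139 against 732 and 293. Of 21 ER stress genes 13 were higher with a median of 0.18, but the median turned to -1.11 with the beta-actin ratio as a covariate, to -0.10 with the hybridisation controls and to -0.12 with the mean of a gene's probe sets. The 2 members of smallest p were lower: Chac1, a target of the stress factor ATF4, read 837 and 792 against 1469 and 1271, and Trib3, another such target, 782 and 407 against 971 and 1061. Immediate early genes had a median of 0.18, which turned to -0.18 with the beta-actin ratio as a covariate. Jund, an AP-1 subunit, read 6951 and 6723 against 2929 and 4701 (0.87 ± 0.36), and Klf2, a transcription factor of endothelium and lymphocytes, 1549 and 942 against 332 and 975.

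Clock genes had 13 of 17 higher, among them Npas2 (320.1 and 417 against 42.5 and 236) and the repressor Nr1d1 (789 and 1001 against 259 and 687), none at an unadjusted p under 0.05. Brown and beige fat genes had 4 of 7 higher, and the median of 0.10 turned to -0.20 with the hybridisation controls, -0.0022 with the beta-actin ratio and -0.38 with the mean of a gene's probe sets. Its 2 members of smallest p were lower. Cox8b, a cytochrome oxidase subunit of muscle and brown fat, read 619 and 270.1 against 1883 and 970.4 (-1.55 ± 0.63), and Dio2, the deiodinase, 236 and 336 against 472 and 351. Nerve and Schwann cell genes were 7 of 10 lower, with a median of -0.15 that turned to 0.87 with the beta-actin ratio, 0.14 with the hybridisation controls and 0.28 under the stricter filter. Its 2 members of smallest p were among the 3 higher: Pmp22, a myelin protein, read 2714 and 2403 against 1296 and 1219.9 and Mbp, another, 721 and 1279 against 194 and 814, though 2 of 6 other Mbp probe sets that passed the filter pointed the opposite way. Ribosomal protein genes were 20 of 24 higher by little (median 0.09), while the 2 members of smallest p were among the 4 lower, with Rps2 at 23734 and 18057 against 28734 and 30971 and Rps27 at 636 and 289 against 1044 and 382. The 4 tested pancreas genes, Ins2, Reg1, Clps and Cela1, gave differences of -0.502, -0.51, -0.47 and 0.11.

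The mouse gene family of the protein given was also read. Serpina1b, one of the near-identical mouse AAT genes, which arrays tell apart poorly, gave 1593 and 456 against 30.0 and 231 (2.40 ± 0.68; diabetic 683 and 1438), and Serpina1c 100.4 and 740.1 against 633 and 273 (-0.40 ± 0.82). Serpina3n, an acute-phase relative, read 1331 and 329 against 478 and 1070.2 (-0.08 ± 0.96), and Serpina10 153 and 431 against 438 and 481. The other 6 measured members (Serpina3a, Serpina5, Serpina6, Serpina7, Serpina9 and Serpina12) were below the filter. Anp32a, a nuclear phosphoprotein, gave 4817 and 4591 in AAT-treated and 2789 and 3854 in normoglycemic fat (0.51 ± 0.32; 1 of 2 other probe sets at -0.04), with 414 and 491 in diabetic fat. Mycl, a transcription factor of the Myc family, gave 657 and 1585 against 1606 and 1137 (-0.37 ± 0.45), with 102 and 53.2 in diabetic fat. Xist, the RNA of the inactive X chromosome, read 28717 and 13455 against 7055 and 16246, while its 2 other probe sets that passed the filter pointed the opposite way (-0.61 and -0.11). The Y-linked genes Eif2s3y, Kdm5d and Uty lay below the filter on these arrays.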

How the data were processed

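RNA from fat tissue was extracted with Trizol and labelled by the Affymetrix single-cycle procedure, per the labels' protocols. The deposited values are linear signal intensities of 45101 probe sets on 6 arrays, made by the authors with MAS5, a tool that the submitters' processing notes name without a version. MAS5 scales each array by a constant, and the trimmed mean was within rounding of 500 on every array (500.002 to 500.003), so it was left as it is. The number of arrays limits the precision.

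The platform annotation gave 1 gene symbol for 34945 probe sets, several for 932 and none for 9160, beside 64 controls, and only the first kind was used. Of the named ones 34741 matched the RefSeq gene table, and 0 symbols changed. Signals were taken as log2(signal + 74), where 74 is their 25th percentile, which understates differences of dim genes. Probe sets with a mean above 164 (40th percentile) were kept. limma 3.58.1 in R 4.3.3 (statmod 1.5.0) was fitted to 3 group means over 6 arrays, with eBayes trend, 3 residual and 5.37 prior degrees of freedom, 2-sided tests and Benjamini-Hochberg adjustment. An exact permutation of 2 against 2 arrays cannot go below 0.333, so none was run. The fit was tested on simulated data with known changes.

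The members and the 35 gene lists were chosen with earlier results of these data known. Genes named were the 12 of each direction with the smallest p and the 8 with the largest difference at an unadjusted p under 0.05, all without overlap, plus the 4 members with the smallest p of lists whose median lay 0.4 or more from that of all genes, 2 of the other lists, all of lists with fewer than 5 tested, and 15 fixed genes. Chosen after their values were seen were Acta2, Tagln, Actg2, Kcnmb1, Pecam1, Plvap, Esr1, Col1a2, Col3a1, Msln, Krt5, Wap, Csn2, Mzb1, Ms4a1, Pax5, Blk, Madcam1, Cd163, H2-DMb2, Mx1, Cdkn1a, Fkbp5, Ehhadh, Cpt2, Ppara, Cebpb, Elovl6 and Lpin1, as were the promoters. Alternatives covered the added value, filter, scaling, probe set choice, covariates, replicate block and each array left out. Same-numbered arrays were not treated as paired in the main fit, since the labels name no pairing.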

Additional observations from a re-analysis of the deposited data

How the results depend on the processing

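No gene passed the adjusted threshold in limma under any other setting that kept all 6 arrays, or in the fit to the 4 compared arrays alone. Leaving out 1 array gave 0 to 3 such genes higher, 238 to 974 higher and 42 to 538 lower at an unadjusted p under 0.05, and 3641 to 4478 higher and 3461 to 5398 lower without overlap, a count that grows because fewer arrays have to be separate. The number lower at an unadjusted p under 0.05 was 432 without the signal filter, 143 with a stricter one, 143 in the fit to the 4 compared arrays and 593 with the beta-actin ratio as a covariate, and 3201 genes were lower without overlap when no filter was used. All tested smooth muscle genes (19, or 18 under the stricter filter) were higher under each of these settings, with medians from 1.32 to 2.84. With an array left out or another added value, that direction follows from the lack of overlap. The medians of the 32 larger lists moved by less than the spread between replicates in 545 of 608 list-by-setting values, and differences of named genes turned sign in 80 of 3070. Both totals include settings that cannot move a difference. These are the eBayes variants, the replicate block, the 4 compared arrays alone and leaving out either diabetic array. The spread was the larger SD of a list's mean within either compared group, 1.86 for endothelium. Staying within it therefore says little where replicates differ. Myh11 passed the adjusted threshold without normoglycemic 2, with a difference of 4.36. The cause of these shifts was not tested.

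With the beta-actin 3' to 5' ratio as a covariate, the difference turned sign for Atp5o (0.43), Blk (0.67), Cd74 (-0.12), Cdkn1a (-0.15), Ckm (1.27), Clps (1.36), Col3a1 (-0.88), Cpt2 (0.0361), Csn2 (1.02), Dio2 (0.19), Ehhadh (0.65), Elovl6 (0.61), Fasn (0.0183) and H2-Aa (-0.13). Under the same covariate it also turned for Ins2 (1.10), Insr (-1.74), Irs1 (0.80), Irs2 (-1.92), Klf2 (-0.53), Lpin1 (-0.20), Ltf (0.25), Madcam1 (0.32), Mpo (0.62), Ms4a1 (1.27), Msln (-0.71), Mycl (1.33), Myh1 (-1.96) and Pax5 (0.41). Under the same covariate it also turned for Pecam1 (-2.35), Plvap (-3.78), Prdx3 (0.38), Serpina10 (0.74), Serpina1b (-0.42), Serpina1c (2.71), Vwf (-2.55), Xist (-1.04) and Zbtb16 (-0.033). With the hybridisation controls as a covariate, the difference turned sign for Insr (-0.0742), Irs1 (0.20), Irs2 (-0.0725), Ms4a1 (0.14), Plvap (-0.0129) and Serpina1c (0.51). With array medians set equal, the difference turned sign for Irs1 (0.12), Madcam1 (0.0152) and Serpina3n (0.061). With quantile normalization, the difference turned sign for Madcam1 (0.0073). With the mean of a gene's probe sets, the difference turned sign for Insr (-0.18), Laptm5 (-0.12) and Slc2a4 (0.27). Leaving out 1 array of any group at a time, differences that turned sign at least once ranged as follows: Cdh1 from -0.53 to 3.33, Clps from -1.55 to 0.62, Esr1 from -0.0386 to 0.89, Fabp5 from -2.04 to 0.14, Hbb-b2 from -2.77 to 0.0391, Ins2 from -1.13 to 0.12, Insr from -0.28 to 1.18, Irs1 from -0.32 to 0.28, Irs2 from -0.14 to 1.40, Krt18 from -0.73 to 2.50, Krt5 from -0.77 to 2.58 and Krt8 from -0.31 to 1.82. Likewise Lep from -2.29 to 1.79, Madcam1 from -0.27 to 0.0197, Ms4a1 from -0.81 to 0.27, Msln from -0.0257 to 1.29, Mycl from -0.97 to 0.22, Pecam1 from -0.60 to 2.78, Plvap from -1.02 to 3.82, Rps27 from -1.14 to 0.15, Serpina1c from -1.51 to 0.72, Serpina3n from -0.98 to 0.82, Slc2a4 from -0.82 to 0.42 and Vwf from -0.0645 to 2.41.

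The labels name no pairing of same-numbered arrays. Their deviations from the group means correlated at -0.505 between AAT-treated and normoglycemic fat, -0.116 between AAT-treated and diabetic and 0.0755 between diabetic and normoglycemic. With so few arrays in a group these values cannot decide whether the samples were paired. With the replicate block over 6 arrays, 367 genes were higher and 136 lower at an unadjusted p under 0.05, and none passed the adjusted threshold. Over the 4 compared arrays, chosen after the data were seen, the replicate block gave 3 genes past the adjusted threshold, all higher, and 253 higher and 55 lower at the unadjusted one. The crossed pairing of those arrays, also chosen afterwards, gave 116 higher and 18 lower past the adjusted threshold and 1060 and 765 at the unadjusted one. No label gives that pairing. It joins arrays that deviate alike from their group means, which shrinks the residual spread by construction, so no conclusion is drawn from its counts. Where leaving out an array left a group with 1, the fit took its spread from the other groups. Probe sets near background limit the lower genes most, since their differences shrink with the added 74.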
